A study of Mus musculus with 8 samples.

Results

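The genes examined were the 10 SR protein genes Srsf1, Srsf2, Srsf3, Srsf4, Srsf5, Srsf6, Srsf7, Srsf9, Srsf10 and Srsf11. Their RNA was measured in a crosslinking and immunoprecipitation (CLIP) experiment on the zinc finger protein Zmat3. A called peak belonged to a gene if its midpoint lay in the RefSeq span of the gene and its strand was that of the gene. By this rule the 10 genes held 130, 129 and 145 of the 129323, 153768 and 122284 peaks called in the immunoprecipitates (IP) of controls 1 to 3. In the IP of the Zmat3 knockout they held 140 of 167648.

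The cells were mouse embryonic fibroblasts that all carried the viral oncogene E1A and oncogenic HrasG12V, both delivered by retrovirus. The 3 control lines also expressed Cas9 (Cas9+) and differed in their negative-control guide RNA, which the labels call EV, SPA and ACOCA for controls 1 to 3. The knockout was 1 Zmat3-/- line with no guide RNA and no Cas9 in its genotype label, so loss of Zmat3 and any other difference between the lines cannot be told apart. Each control IP was compared by the authors with input and with the knockout IP, and the knockout IP was compared with input, which gave 7 peak lists from 4 IPs. The knockout line came from a separate source of fibroblasts, with strain and sex not given in the sources used here.

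SR proteins are splicing factors with an RNA recognition motif and a domain rich in serine and arginine. They bind exonic and intronic enhancer sequences and help the spliceosome to recognise exons. Many SR protein genes hold a conserved poison exon, whose inclusion brings in a premature stop codon and sends the mRNA to nonsense-mediated decay. In this way SR proteins limit their own level and that of each other. Zmat3 is an RNA-binding product of a p53 target gene. Exon positions were not used here, so whether a peak lay in a poison exon, another exon or an intron was not analysed here.

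Each peak carried the authors' log2 fold and −log10 p-value for the IP against the comparator, and no read count, so the depth behind a value is unknown. Folds took few distinct values. In the knockout list, 22.4% of all called peaks had a log2 fold of 0.23, and in the lists of controls 1 to 3 over input the most frequent value was shared by 13.0%, 13.8% and 19.0% of peaks. A −log10 p-value of 0 was listed for 83.0% of the knockout peaks, and for 25.7%, 27.4% and 41.7% of those of controls 1 to 3 over input. Enriched peaks are those whose log2 fold and −log10 p-value both reached 3. Of 8 fibroblast markers, 4 had called peaks in each IP other than that of control 2, where 5 had them. Their summed number was 86 to 109 in the controls and 107 in the knockout, and Col1a1, Col1a2 and Thy1 were at 0 in each IP. Fn1 and Vim made up most of it and had their highest counts in the knockout (79 and 21 peaks), whereas Pdgfrb had 2 there and 16, 12 and 10 in controls 1 to 3. Of 4 epithelial markers, 1 or 2 had called peaks in the controls (9 to 12 peaks) and 3 in the knockout (19 peaks), Epcam among them in every IP. Of 3 blood markers only Cd68 had any (1 to 3 peaks), and all 3 endothelial markers were at 0. The part of such cells in the results was not tested. Peaks called in Zmat3 itself numbered 42, 48 and 39 in controls 1 to 3, and 38 in the knockout on either strand. Over the knockout IP, 4, 16 and 1 of them were enriched in controls 1 to 3, beside 0.621%, 1.09% and 0.648% of all called peaks. Over input only 0, 1 and 0 were enriched, beside 1.02%, 1.05% and 0.494% of all called peaks. Peaks were still called along the gene in the knockout.

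Sequence was at hand only for stretches close to annotated gene starts, and these stretches are shown because peaks were called there in all 4 IPs, with and without Zmat3. The peak at the start of Srsf7 in control 1 was also the one enriched SR protein peak that fell in such a stretch. The lines give bases shared by the 4 peaks within the first 50 nt of the annotated RNA, limited to 30 bases, 5′ to 3′ on the gene strand, taken from RefSeq on GRCm38.p6. Capitals would mark runs of 3 or more T, and none occurred.
Srsf7: aggcagaggaggttgcgcagccgcttccgt
Srsf3: gtgacgccgcgagaccgagaatctgtagg
Srsf9: ggaggctgcggcggggggcccc
Srsf4: gactggggctccggg
Srsf2: ctgcggcggcc
The Srsf7 stretch is chr17:80207257-80207286 on the minus strand, bases 20 to 49 of the annotated RNA. The others are chr17:29032681-29032709 (Srsf3, plus strand), chr5:115327205-115327226 (Srsf9, plus strand), chr4:131874095-131874109 (Srsf4, plus strand, at a start listed for the gene downstream of the others) and chr11:116853045-116853055 (Srsf2, minus strand). T made up 16.7% of the Srsf7 stretch, the highest share of these, and 4.55% of the Srsf9 stretch, the lowest. The letters TTT occurred on the gene strand in 37.6% of the 50-base windows after the 32851 annotated starts of all genes. The printed stretches are shorter than those windows, so their lack of a match is not comparable with that share.

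Other than 1 peak, the log2 folds over input at these starts lay between −1.47 and 1.22. In the Srsf7 start peak they were 3.12, −0.23 and 0.18 in controls 1 to 3 and 0.65 in the knockout. Control 1 alone was high, with a −log10 p-value of 3.24, and over the knockout IP the same peak reached only 0.71 in that control. The Srsf3 start had 0.025, −0.90 and −0.18 in controls 1 to 3 and 0.38 in the knockout, which was the highest of the 4. At the Srsf9 start the values were 0.071, −0.30 and −1.45 against −1.47 in the knockout, and at the Srsf2 start −0.16, −1.31 and −0.49 against −0.74. The Srsf4 start had 1.22, 0.60 and −0.27 against 0.41. The knockout lay within the range of the controls at the Srsf2, Srsf4 and Srsf7 starts.

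The first comparison asked whether the IP recovered SR protein RNA beyond input, and whether it did so in cells that lack Zmat3. Controls 1 to 3 had 1, 7 and 3 enriched SR protein peaks, and the knockout had 0. These peaks lay at 1, 5 and 2 sites, where a site is the union of called peaks that overlap on the same strand over the 4 IPs, and neighbouring peaks of a site are not separate events. As shares of the called SR protein peaks the counts were 0.769%, 5.43% and 2.07%, beside 1.02%, 1.05% and 0.494% of all called peaks in the same lists. In the knockout the share over all called peaks was 0.316%, at which 140 peaks would hold 0.442 enriched ones, so the count of 0 is close to the background. The mean share was 2.75% ± 2.40 (SD, n = 3) in the controls, and an exact two-sided permutation test against the knockout gave p = 0.50 (adjusted over 3 tests, 0.75). With 3 libraries against 1 this test cannot go below 0.25. Control 2 supplied most of the enriched peaks, and without it the mean count fell from 3.67 to 2.00.

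Over the knockout IP, 1, 10 and 4 SR protein peaks were enriched in controls 1 to 3, at 1, 6 and 3 sites. The shares were 0.769%, 7.75% and 2.76%, beside 0.621%, 1.09% and 0.648% of all called peaks. Control 1 thus lay close to its list, and controls 2 and 3 lay above theirs. The 3 lists share the knockout library and were not tested against each other. The mean count was 5.00, and 2.50 without control 2.

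Over input, 1, 4 and 2 of the 10 genes held an enriched peak in controls 1 to 3, beside 7.75%, 13.2% and 4.07% of protein-coding genes, and 0 in the knockout, beside 3.05%. Against the knockout IP, 1, 4 and 3 genes did, beside 6.08%, 14% and 6.19%. Enrichment was spread over 5 of the 10 genes over input (Srsf1, Srsf2, Srsf5, Srsf7 and Srsf11) and over 5 of the 10 over the knockout IP (Srsf1, Srsf2, Srsf5, Srsf10 and Srsf11), counting genes with an enriched peak in at least 1 control. Among all protein-coding genes with called peaks in the 3 controls, the shares were 16.7% and 17.1%. Every SR protein gene held at least 7 called peaks in each control, and among the 4017 genes with as many the shares were 28.5% and 28.1%. Requiring both enrichments in the same control left 4 genes, Srsf1, Srsf2, Srsf5 and Srsf11, beside 9.83% of all genes and 16.7% of those with at least 7 peaks. Their peaks formed 5 sites, of which 0 qualified in control 1, 4 in control 2 and 2 in control 3. A knockout peak was called at 1 of the 5 sites, beside 68.1% of all sites called in the 3 controls. The 5 sites were selected by enrichment over the knockout IP, so this count is not comparable with that share.

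**Figure D1:**
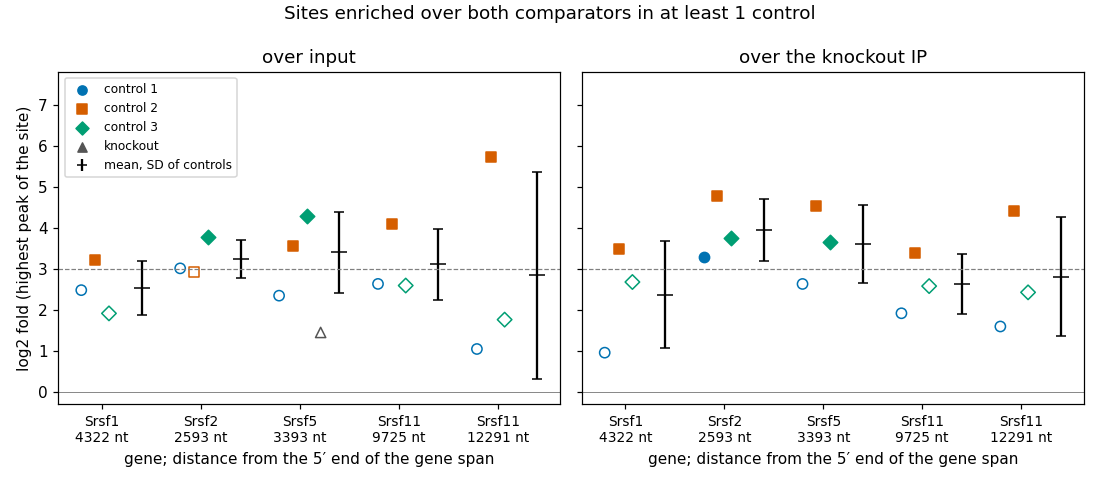
Log2 fold of the 5 SR protein sites enriched over both comparators in at least 1 control, over input (left) and over the knockout IP (right). Each symbol is the highest peak of 1 library, filled where a peak was enriched, the bars give mean and SD of the 3 controls, and the dashed line marks a log2 fold of 3. The knockout has a called peak only at the Srsf5 site, at 1.45, below the 3 controls, and control 2 is the highest library at 3 of the 5 sites over input and at all 5 over the knockout IP.

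Among the members with a pair of RNA recognition motifs, Srsf5 held the one region that qualified in at least 2 controls, which 2.31% of all protein-coding genes with called peaks in the 3 controls and 4.06% of those with at least 7 peaks also had. The region lies on the plus strand of chromosome 12 at 80948926–80949097, inside the Srsf5 span of 80945495–80950507, and begins 3431 nt from its 5′ end. Over input its log2 fold was 2.35, 3.56 and 4.30 in controls 1 to 3, and 1.45 in the knockout. These are the highest peaks of each library, and by them all 3 controls lay above the knockout, whose −log10 p-value was 0.34. That knockout peak, at 80949055–80949081, overlapped peaks with 1.10, 2.91 and 4.30 in controls 1 to 3, so control 1 was lower there. Another knockout peak, at 80948967–80948985, had −1.03. Over the knockout IP the fold was 2.64, 4.53 and 3.66, and the mean was 3.61 ± 0.95 (SD, n = 3). Control 1 had a −log10 p-value of 8.14 over the knockout IP but stayed under the fold threshold in both comparisons. The region therefore rested on controls 2 and 3, and it was lost without either of them.

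Within the Srsf5 site the signal extended over neighbouring peaks. In control 2 all 4 called peaks from 80948926 to 80949100 were enriched over the knockout IP, with log2 folds of 4.49, 4.53, 3.36 and 3.83 from the 5′ to the 3′ side. In control 3 the pair of peaks from 80948941 to 80949097 had 3.66 and 3.41, whereas the peak upstream of them had 2.90. Outside the site, the highest Srsf5 peak over the knockout IP reached 1.16, 0.98 and 1.75 in controls 1 to 3. The medians of those other peaks were 0.54, 0.35 and 0.17, below the medians of 1.18, 0.88 and 1.00 over all called peaks. Peaks outside the site were thus lower, but the site was chosen for its high folds, so a difference in this direction was built in. Control 2 had only 3 peaks outside it.

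Srsf1 (SF2/ASF), a regulator of constitutive and alternative splicing, had 1 qualifying site. It lies at 88050821–88050918 on the plus strand of chromosome 11, 4322 nt into the gene. Over input it had 2.48, 3.21 and 1.92 in controls 1 to 3, and over the knockout IP 0.96, 3.49 and 2.68. Only control 2 passed both thresholds, with −log10 p-values of 10.7 and 13.4, and no knockout peak was called there. The mean over the knockout IP was 2.38 ± 1.29 (SD, n = 3), and 1.82 without control 2. Another Srsf1 site at 88048336–88048426 had the highest minimum over the knockout IP in the gene, at 2.18, 1.66 and 2.02, all under the threshold.

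Srsf4, Srsf6 and Srsf9, the remaining members with a pair of recognition motifs, had 0 enriched peaks in all 7 lists. Srsf4 held the most called peaks of the 10 genes, 30, 30 and 33 in controls 1 to 3 and 28 in the knockout, in a span of 28196 nt. Its site with the highest minimum over the knockout IP, at 131876039–131876145 on chromosome 4, had 3.41, 1.88 and 1.58, and the value of control 1 came with a −log10 p-value of 2.1. In Srsf6 the site at 162933252–162933415 on chromosome 2 reached 1.12, 2.95 and 3.40 over input. The Srsf6 values of controls 2 and 3 missed the thresholds narrowly, one by its fold and the other by its −log10 p-value of 2.48, and over the knockout IP the 3 controls had 1.82, 2.50 and 1.39. Srsf9 had 1.00, 0.13 and 1.36 over the knockout IP at the site with its highest minimum over the controls, 115327197–115327506 on chromosome 5. Its highest single peak over the knockout IP in control 1 reached 2.92, with a −log10 p-value of 1.40.

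Among the members with a single recognition motif, Srsf2 (SC35, a marker protein of nuclear speckles) came closest to Srsf5. Its site at 116851004–116851082 on the minus strand of chromosome 11 begins 2593 nt from the 5′ end of a span of 3779 nt. Against the knockout IP it had 3.30, 4.79 and 3.75 for controls 1 to 3, with all 3 enriched. Its mean was 3.95 ± 0.76 (SD, n = 3). No other SR protein site was enriched over the knockout IP in all 3 controls. Over input the site had 3.02, 2.92 and 3.77, and only control 3 passed both thresholds. Control 1 missed with a −log10 p-value of 2.95 and control 2 with its fold, so the site did not count as a reproducible region. At a fold threshold of 2 it counted, and the number of SR protein regions rose from 1 to 2. No knockout peak was called at the site. A further Srsf2 peak, called in control 2 alone at 116851352–116851400, had 3.62 over the knockout IP but 1.34 over input.

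The other Srsf2 peaks lay lower than the site, which was chosen for its high folds. Their median over input was −0.27, −0.16 and −0.65 in controls 1 to 3 and −1.05 in the knockout, all below 0. Their median against the knockout IP was 0.39, 0.54 and 0.18, under that of all called peaks. The Mfsd11 gene overlaps Srsf2 on the opposite strand, and no called peak of that strand had its midpoint in the Srsf2 span.

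Srsf11, an SR-related protein also known as p54, held 2 sites that qualified in control 2. The stronger, at 158024276–158024376 on the minus strand of chromosome 3, had 1.05, 5.72 and 1.77 over input and 1.60, 4.41 and 2.43 over the knockout IP. The value of 5.72 was the highest of any SR protein peak, but the other controls were far lower and the spread was wide (2.84 ± 2.51 over input, SD, n = 3; 1.41 without control 2). The other site, at 158026888–158026942, had 2.64, 4.10 and 2.60 over input and 1.92, 3.38 and 2.58 over the knockout IP. The controls lay closer together there, although controls 1 and 3 had −log10 p-values of 1.02 and 1.06 over input. Srsf11 otherwise lay low, with a median over input of −0.22, −0.045 and −0.30 outside these sites.

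Srsf7, which carries a zinc knuckle besides its recognition motif, had enriched peaks over input only. Besides its start peak in control 1, a peak of control 2 at 80202780–80202870 on the minus strand of chromosome 17 had 3.02. The site was called in control 3 as well, with 3.18 and a −log10 p-value of 2.0, and in neither control 1 nor the knockout. Against the knockout IP it had 2.30 and 2.17 in controls 2 and 3. Srsf10, a splicing repressor when dephosphorylated, had 1 enriched peak, in control 3 over the knockout IP at 135858077–135858189 on chromosome 4. That site had 2.18, 1.88 and 3.90 over the knockout IP, and 0.31, 0.60 and 1.33 over input. Srsf3, which also serves as an mRNA export adaptor, had 0 enriched peaks in all 7 lists, and its site with the highest minimum over the knockout IP, at 29039469–29039605 on chromosome 17, had 1.66, 0.96 and 1.28.

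**Figure D2:**
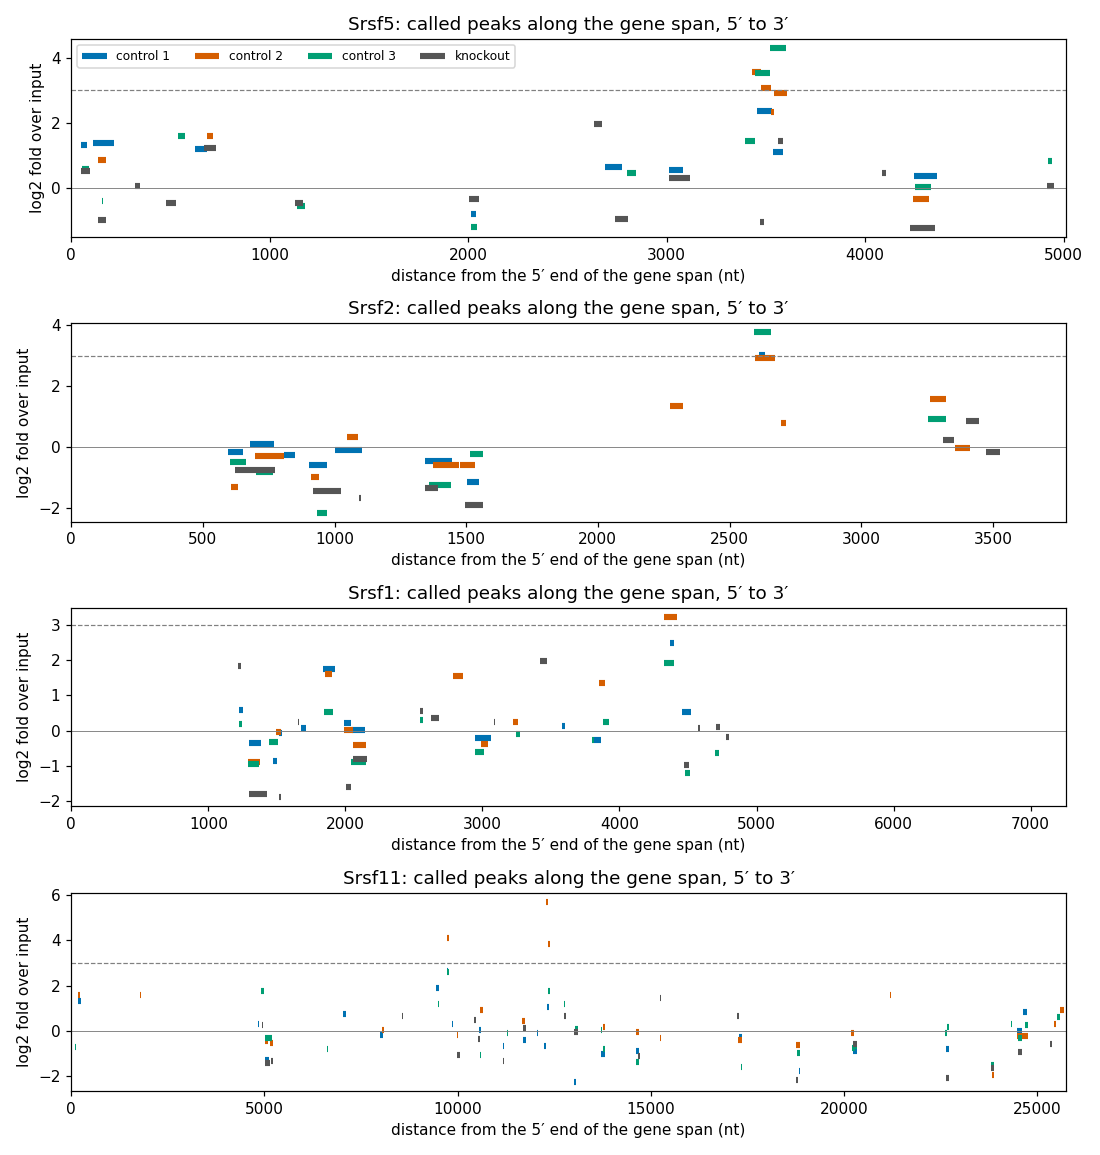
Called peaks of Srsf5, Srsf2, Srsf1 and Srsf11 along the gene span, with the distance from its 5′ end on the x axis and the log2 fold over input on the y axis. Each bar is 1 peak drawn at its length and coloured by library, and the dashed line marks a log2 fold of 3. The highest bar of each control at the Srsf5 site (2.35, 3.56 and 4.30) and the control bars at the Srsf2 site (3.02, 2.92 and 3.77) stand above all peaks outside these sites in the same gene, which reach at most 1.97 and 1.57, while the Srsf11 bars above the line belong to control 2.

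Called peaks were spread unevenly over the genes. Srsf2, the shortest, held 2.29 called peaks per kb on average over the controls, and Srsf5 held 1.80. Srsf11 and Srsf10, both with long spans, held 0.94 and 0.75, but Srsf4, the longest, held 1.10.

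The 5 qualifying sites lay inside the genes. Srsf2 and Srsf5 had theirs at 69.7% and 69.8% of the span from the 5′ end, Srsf1 at 60.2%, and Srsf11 at 37.9% and 47.9%. Called SR protein peaks were most frequent on the 5′ side. With each span cut into 3 equal parts, the 5′ part held 60, 55 and 59 of the SR protein peaks of controls 1 to 3, and 54 in the knockout. The 3′ part held 20, 27 and 35, and 40 in the knockout. The knockout had the highest share there, 28.6% against 15.4%, 20.9% and 24.1%. Over all protein-coding genes with a listed strand, the 3′ part held 36.4%, 40.3% and 37.4% of the peaks of controls 1 to 3 and 35.3% of those of the knockout. For the 5′ part the shares over all such genes were 34.5%, 30.5%, 33.1% and 35.1%, beside 46.2%, 42.6%, 40.7% and 38.6% for the SR protein genes. These differences were not tested.

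**Figure D3:**
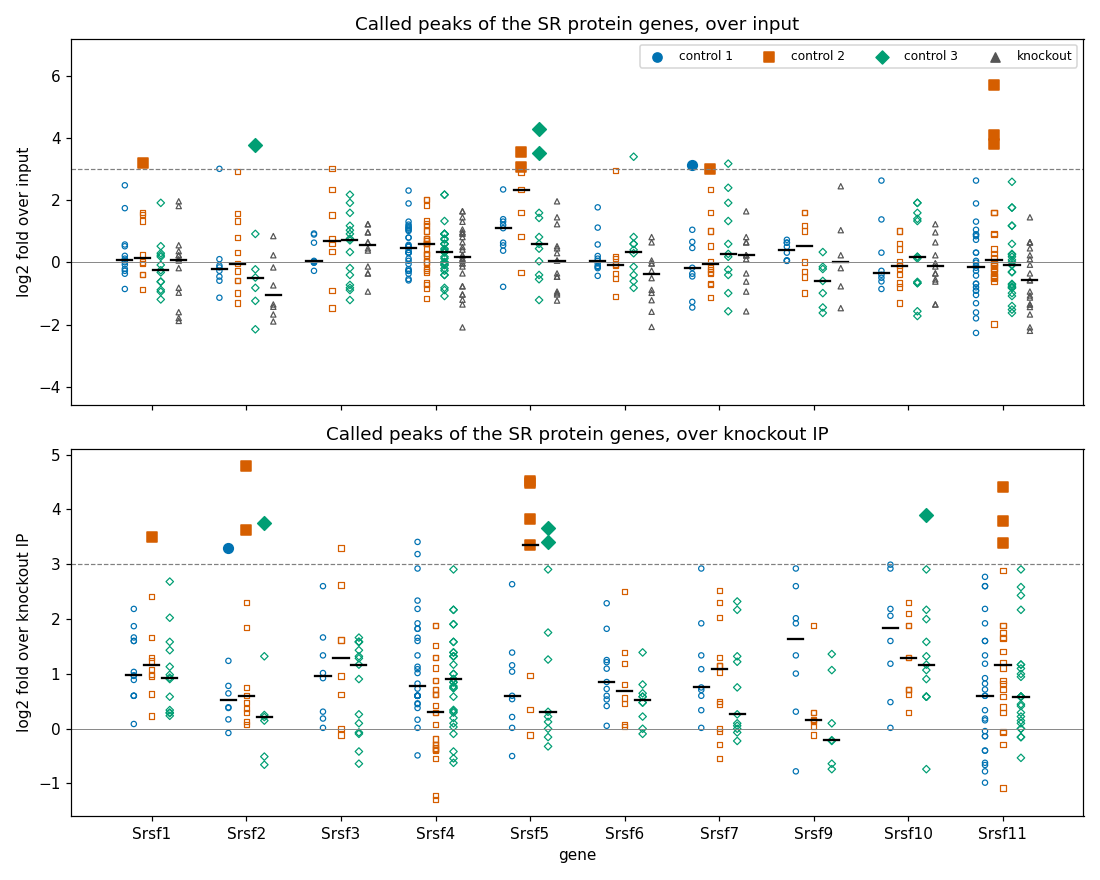
Log2 fold of every called peak of the 10 SR protein genes, over input (upper panel, 4 IPs) and over the knockout IP (lower panel, 3 controls). Filled symbols are enriched peaks, black bars are the medians of each gene and library, and the dashed line marks a log2 fold of 3. Enriched peaks are absent from the knockout, and gene medians over input reach at most 1.10, other than Srsf5 in control 2 at 2.34.

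Across whole genes, the SR protein peaks had lower folds over input than the median called peak of each list. The median log2 fold of all SR protein peaks over input was 0.12, 0.24 and 0.18 in controls 1 to 3, and −0.031 in the knockout. The medians over all called peaks were 0.90, 0.60 and 0.60, and 0.23 in the knockout. The difference was −0.52 ± 0.23 (SD, n = 3) in the controls and −0.26 in the knockout, and the exact permutation test gave p = 0.50 (two-sided, adjusted over 3 tests 0.75). The knockout lay nearer to its list median than any control, but the test cannot reach 0.05. Gene medians lay below the list median for 9, 7 and 8 of the 10 genes in controls 1 to 3, and for 8 in the knockout. Of all genes with at least 5 called peaks, 44.4%, 37.8% and 47.4% lay below it in the controls, and 43.7% in the knockout.

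Against the knockout IP, the corresponding difference was −0.31, −0.17 and −0.26 in controls 1 to 3. As a mean over peaks the shift averaged −0.090 over the controls, against −0.25 for the median. Gene medians lay below the list median for 8, 4 and 8 of the 10 genes, beside 47.4%, 33.8% and 40.4% of all genes with at least 5 called peaks. In control 2 the median over the 10 genes was 0.24, above the list median, whereas it was −0.37 and −0.44 in controls 1 and 3. Srsf10 was the one gene above the list median in all 3 controls, by 0.64, 0.42 and 0.17, although over input it lay below in all 3 (−0.78 ± 0.41, SD, n = 3). Srsf2, Srsf4 and Srsf6 lay below the list median over the knockout IP in all 3 controls. The share of all genes above or below it in all 3 controls was not computed, and the 3 lists share the knockout library. Srsf5 ranged widely, with −0.58 in control 1, 2.47 in control 2 and −0.69 in control 3. The high value of control 2 comes from 4 peaks of the site among its 7 called Srsf5 peaks. Srsf9 ranged from 0.44 in control 1 to −1.21 in control 3.

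**Figure D4:**
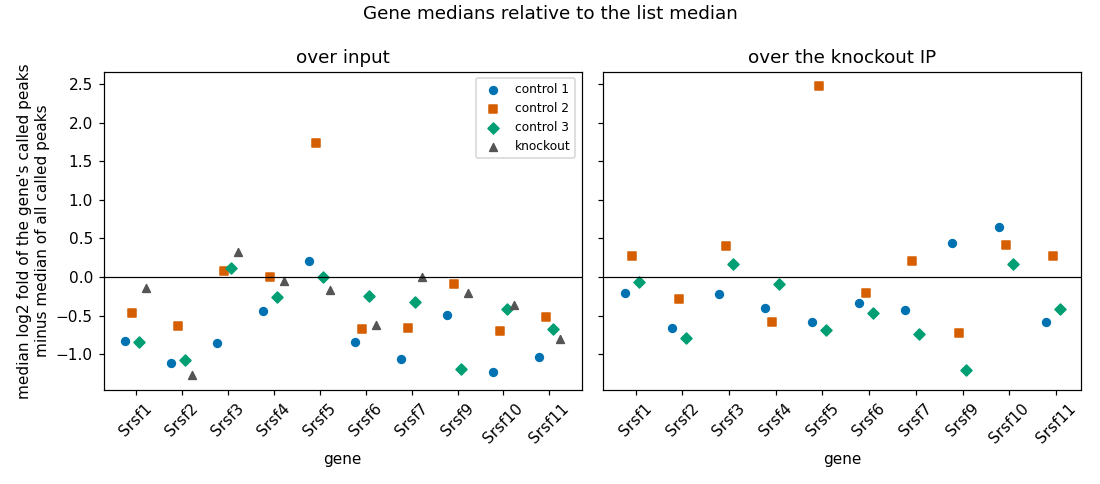
Median log2 fold of the called peaks of each SR protein gene minus the median over all called peaks of the same list, over input (left) and over the knockout IP (right). Each symbol is 1 library and the horizontal line at 0 is the list median. Most genes lie below the line over input, and Srsf5 in control 2 stands apart at 1.74 over input and 2.47 over the knockout IP.

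Sites called both with and without Zmat3 allowed a direct comparison of libraries. The 10 genes had 274 sites, of which 51 were called in all 3 controls, beside 23623 of the 394888 sites of all lists over input. The part was larger for the SR protein genes, which was not tested. Of the 51 sites, 36 were also called in the knockout. The share of 70.6% was close to the 68.1% over all genes and intergenic sites. After subtraction of the list medians, the knockout lay below every control at 13 of the 36 sites (36.1%) and above every control at 8 (22.2%). Over all sites called in the 4 IPs the shares were 34.2% and 23.2%, so the SR protein genes lay near the background. Of the 274 sites, 141 (51.5%) were called in at least 1 control and not in the knockout, beside 58.8% of the 394888 sites of all lists over input. Sites called in the knockout alone numbered 46 (16.8%, beside 24.6%), and those called in exactly 1 IP 149 (54.4%, beside 74.1%). All 3 shares were below those of all sites, and the differences were not tested. All 3 sites of Srsf5 called in the 4 IPs, all 3 of Srsf6 and the 1 of Srsf10 had the knockout lowest, whereas Srsf3 and Srsf7 had 0 of 2 and 0 of 4. Srsf1 had 2 of 3, Srsf2 1 of 4, Srsf4 1 of 6, Srsf9 1 of 2 and Srsf11 1 of 8. With so few sites per gene these splits were not tested, and the share of all genes with such splits was not computed. Besides the qualifying site, Srsf5 had the knockout lowest at 80945606–80945712, with 1.39, 0.85 and −0.40 in the controls against −0.99, and at 80949722–80949857, with 0.38, −0.33 and 0.037 against −1.23. In Srsf6 the site at 162931536–162931697 had −0.029, −0.51 and −0.82 against −2.08. The Srsf6 site at 162932215–162932364 had −0.43, −0.058 and −0.40 against −1.59, and that at 162934499–162934748 had 0.052, −0.087 and 0.82 against −0.88. Control values at these 5 sites stayed far under the enrichment threshold.

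The wider SR protein pathway was covered by 37 genes for SR-related proteins, their kinases, their import and export receptors and nonsense-mediated decay. Called peaks in all 3 controls were found for 35 of them, and 2 held a reproducible region, beside 2.31% of all genes. Upf3b, which acts in nonsense-mediated decay, had 5.60, 5.72 and 5.60 over input in controls 1 to 3. Its lowest and highest values over the knockout IP were 5.88 and 6.58 (mean 6.16 ± 0.37, SD, n = 3), so all 3 controls passed both thresholds. Its region lies at 37092699–37092804 on the minus strand of chromosome X. Srpk2, a kinase that phosphorylates SR proteins, had 4.02, 3.60 and 2.77 over input and 3.30, 3.88 and 2.75 over the knockout IP at 23514172–23514298 on the minus strand of chromosome 5. Its region rested on controls 1 and 2. Of the 35 genes, 3 had an enriched peak over input in at least 1 control and 7 over the knockout IP, beside 16.7% and 17.1% of all genes. In the knockout, 0 had one over input, beside 3.05% of all genes, so this count is close to the background. Of the 32 with at least 7 called peaks in each control, 2 had one over input and 6 over the knockout IP, beside 28.5% and 28.1% of all such genes, and 1 held a reproducible region, beside 4.06%. No knockout peak was called at either region, and both were selected by enrichment over the knockout IP.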

How the data were processed

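Zmat3 CLIP peak lists were analysed for 10 SR protein genes in 3 control IPs and 1 knockout IP. Per the labels' protocols, 35 to 110 kDa complexes were isolated after crosslinking and RNase treatment. The deposited lists gave each peak a −log10 p-value, capped at 400, and a log2 fold against input or the knockout IP, both made by the authors and recognised from the values, as the lists have no header. The comparator of each list was read from its name. The build is mm10, per the submitters' processing notes. Aligner, peak caller, duplicate removal, library scaling and the handling of an empty comparator were not given in the sources used here. Inputs had no list of their own. Read depth is unknown, so no counting intervals were computed.

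Gene spans and strands came from RefSeq tables of GRCm38.p6, without exons. Background genes without a listed strand (1591 of 8395) were counted on either strand. A region was reproducible if peaks enriched over both comparators, overlapping by at least 1 nt, came from at least 2 controls. A site value is that of the highest peak in each library. Named sites were every qualifying site, every site enriched in the knockout (none) and the site of each gene with the highest minimum over the knockout IP. Srsf2 at 116851352, both Srsf7 peaks enriched over input alone, the gene starts, and the Srsf5 and Srsf6 sites at which the knockout was lowest were named after their values were seen. The background of genes with at least 7 called peaks and the shares of all sites and of all genes by position were added after seeing the data. The members, gene lists and thresholds were chosen with earlier results of these data known. Exact permutation tests over 4 libraries enumerated every choice of the lone library. The code for region calling was checked on planted identical peaks, which does not measure how reliable the calls are in real data. The labels do not say whether the control lines came from separate embryos, so p-values measure only the spread between these samples. Software was Python 3.11.15, pandas 2.3.3 and numpy 2.4.6.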

Additional observations from a re-analysis of the deposited data

Results flagged for a closer look

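At 1 of the 36 SR protein sites called in all 4 IPs, the controls and the knockout lay on opposite sides of 0 over input. The share of such sites over all genes was not computed, so whether 1 of 36 is unusual is unknown. The site lies in Srsf11 (chromosome 3, 158019309–158019436, minus strand). The log2 fold over input was −0.27, −0.42 and −1.63 in controls 1 to 3 and 0.65 in the knockout, whose −log10 p-value was 0.13. Over the knockout IP the same site had 0.60, 1.10 and 0.58, beside medians of 1.18, 0.88 and 1.00 over all called peaks. Controls 1 and 3 thus lay below their list median there, although all 3 values were above 0. With a single knockout library, the difference between controls and knockout was not tested.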

How the results depend on the processing

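Enriched SR protein peaks over input (3.67 per control) averaged 1.0 with the log2 fold threshold at 4 and 2.33 at a −log10 p-value of at least 5, and 2.0 to 5.0 when 1 control was left out. Over the knockout IP (5.0) they averaged 8.0 at a fold of at least 2, 1.33 at 4, and 2.5 to 7.0 with 1 control left out. The number of reproducible regions (1, in Srsf5) was 2 at a fold of at least 2 and by the knockout IP alone, each time with Srsf2 added. It was 0 at a fold of at least 4 and with support by all 3 controls, 6 with support by 1 control, and 0 to 1 with 1 control left out. The 6 regions lie in the 5 sites described, since adjacent Srsf11 peaks count separately. The shift over the knockout IP (−0.25) was −0.090 as a mean over peaks. The other 31 of the 45 alternatives for these 5 measures kept their value within 1 SD or their count within 1.5 times. Leaving out 1 control kept the means of the 5 qualifying sites within 1 SD, but with 3 controls this holds whatever the values. The same applies to the shifts when 1 control was left out, so neither speaks to stability. The mean of the stronger Srsf11 site over input ranged from 1.41 to 3.74 with 1 control left out. No paired analysis was possible because the inputs have no lists of their own. Unknown depth limits all p-values, and the single knockout library limits every comparison with it.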
